A study of Mus musculus with 4 samples.

Results

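Regulators of how long inflammatory messenger RNAs last, 10 genes in all, were measured in tumour-associated macrophages of mice on a high-fat diet and of mice on a control diet. They are the tristetraprolin (TTP) family genes Zfp36, Zfp36l1 and Zfp36l2, the Regnase-1 gene Zc3h12a, the Roquin genes Rc3h1 and Rc3h2, the deadenylation adaptors Btg1 and Btg2, the deadenylase scaffold gene Cnot1, and Elavl1, which encodes HuR. The genes were taken by name, and all 10 were found among the 53379 genes of the count table and passed the filter on low counts. The libraries came from MC38 tumours, grafts of a mouse colon carcinoma line in C57BL/6J hosts, collected 21 days after implantation. Cells were sorted as positive for CD45, CD11b and F4/80, and RNA was sequenced from 2 high-fat-diet mice and 2 control-diet mice. Each library is named for 1 mouse, and the composition of the diets is not given in the sources used here.

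Inflammatory transcripts are made in bursts and are then removed by proteins that read their 3' untranslated regions (UTRs). TTP and its relatives bind AU-rich elements and recruit the CCR4-NOT complex, which shortens the poly(A) tail. Regnase-1 is an endonuclease that cuts stem-loops, and the Roquin proteins bind such stem-loops and recruit CCR4-NOT too. BTG proteins link the deadenylases to their substrates, and HuR binds AU-rich and U-rich elements and is best known for protecting transcripts from decay. In macrophages TTP is induced by inflammatory signals, is held inactive by the kinase MK2 downstream of p38, and limits the output of tumour necrosis factor.

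The element that TTP reads best is the nonamer TTATTTATT, written here in DNA letters. It was searched on the sense strand of the longest annotated 3' UTR of each gene, counting overlapping matches. Of 13528 tested genes with an annotated 3' UTR, 7.92% held at least 1 nonamer, and 6 of the 10 decay regulators did. Their sites are shown because TTP family transcripts carry the very element that their proteins read, and the Tnf site stands beside them as the textbook target. Each line gives 30 bases, 5' to 3', from the transcript annotation on GRCm38, with the nonamers in capitals (runs of capitals longer than 9 bases are overlapping nonamers).
Zfp36: ttatgacgactTTATTTATTgtattaagat
Zfp36l1: aaactgttggaTTATTTATTttagaaattc
Zfp36l2: aactatttaacTTATTTATTatcttgtgaa
Rc3h1: tactttactcaTTATTTATTgagatgagga
Rc3h2: acaaagacattTTATTTATTttactctgta
Elavl1: gaaaaTTATTTATTTATTTATTTATTttta
Tnf: taTTATTTATTATTTATTTATTATTTATTt
The Zfp36 site lies at chr7:28376951-28376980, the Zfp36l1 site at chr12:80108167-80108196 and the Zfp36l2 site at chr17:84184914-84184943, all on the minus strand. The Rc3h1 site is at chr1:160970042-160970071 on the plus strand. The Rc3h2 site at chr2:37373287-37373316 and the Elavl1 site at chr8:4285782-4285811 are on the minus strand, as is the Tnf site at chr17:35199680-35199709. All 7 sites are in exons, in the 3' UTR. Elavl1 held 8 nonamers in a 3' UTR of 4218 bases and Tnf 5 in 764 bases. Zfp36, Zfp36l1, Zfp36l2, Rc3h1 and Rc3h2 held 1 nonamer each, in 774, 1835, 1822, 7181 and 5331 bases. The 3' UTRs of Zc3h12a, Btg1, Btg2 and Cnot1 held 0 nonamers.

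High-fat-diet mice gave total counts of 36898146 and 37147582, and control-diet mice 34148682 and 37159552. All 10 macrophage markers of a list were detected, Ptprc, Itgam and Adgre1 of the sort among them, and summed to 10571 and 10987 CPM in high-fat-diet mice, against 11286 and 11776 CPM in control-diet mice. CPM are counts scaled to the library size, which was adjusted by TMM. Markers of some other cells also differed between the diets. Counts of lower and higher markers given here are edgeR calls at an adjusted p below 0.05. Of all genes tested, 7.91% were called lower and 2.61% higher. Of 7 neutrophil markers 5 were lower on the high-fat diet, with S100a8 at 1.95 and 1.43 CPM in high-fat-diet mice, against 22.7 and 13.1 CPM in control-diet mice, and Ly6g at 0 counts in both high-fat-diet mice, against 10 and 30 counts in control-diet mice. The 7 markers summed to 191 and 169 CPM in high-fat-diet mice, against 381 and 189.7 CPM in control-diet mice. Of 6 epithelial and tumour cell markers 5 were lower, and the 6 summed to 39.4 and 45.9 CPM in high-fat-diet mice, against 156 and 109 CPM in control-diet mice. Of 7 fibroblast and pericyte markers 4 were higher, and the 7 summed to 2013 and 1994 CPM in high-fat-diet mice, against 1021 and 769.9 CPM in control-diet mice. Of 7 dendritic cell markers 1 was lower, and the 7 summed to 21.2 and 27.5 CPM in high-fat-diet mice, against 79.1 and 54.0 CPM in control-diet mice. T and NK cell markers, with 1 of 9 higher, summed to 24.8 and 23.6 CPM in high-fat-diet mice, against 46.5 and 14.4 CPM in control-diet mice. B cell markers, with 1 of 4 tested lower, summed to 15.4 and 17.2 CPM in high-fat-diet mice, against 11.3 and 18.4 CPM in control-diet mice. The summed levels overlapped between the diets for neutrophil, T and NK cell, and B cell markers. Most of the neutrophil sum came from Csf3r and Mmp9, which were not called. Csf3r had 80.8 and 83.0 CPM in high-fat-diet mice, against 138 and 71.6 CPM in control-diet mice. Mmp9 had 104 and 81.5 CPM in high-fat-diet mice, against 124 and 73.5 CPM in control-diet mice. Cdh1 and Cd79b, also not called, made up most of the epithelial and B cell sums. All 7 neutrophil, all 7 dendritic cell and all 6 epithelial and tumour cell markers had a negative log2 fold change, called or not. All 7 fibroblast and pericyte markers had a positive one, as did 4 of 9 T and NK cell and 3 of 4 B cell markers. Every epithelial marker was lower and every fibroblast marker higher without overlap between the diets, against 31.6% and 32.2% of all genes. Without overlap, 5 neutrophil, 3 dendritic cell and 5 macrophage markers were lower, and 3 macrophage markers were higher. Of T and NK cell markers 2 were lower and 1 higher without overlap, and of B cell markers 1 was lower. Over all marker lists edgeR called 5 higher and 12 lower; without either of the high-fat-diet mice it called 4 higher and 4 lower. Without control-diet mouse 1 the calls were 8 higher and 13 lower, and without control-diet mouse 2 they were 8 higher and 21 lower. With every gene with a count tested, 8 were higher and 7 lower. S100a8 kept its call without any 1 library, and S100a9 lost it without high-fat-diet mouse 1 (edgeR adjusted p = 0.101) or high-fat-diet mouse 2 (0.0851). Whether these cells had a part in the values that follow was not tested. In bulk RNA, fewer cells of a type and less RNA per cell cannot be told apart.

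No decay regulator passed the test between the diets, and their values lay in both directions. Zfp36, Zfp36l1 and Elavl1 had higher values in both high-fat-diet mice than in either control-diet mouse, Zfp36l2, Zc3h12a, Rc3h1 and Cnot1 had lower values, and Rc3h2, Btg1 and Btg2 overlapped between the diets. By edgeR's quasi-likelihood test with Benjamini-Hochberg adjustment over 18422 genes, 0 of the 10 genes had an adjusted p below 0.05, and DESeq2 called 0 too. At an unadjusted p below 0.05 edgeR had 3 of the 10, against 31.3% of all genes tested by edgeR, and DESeq2 had 2. Across all genes 10.5% were called, 2.61% higher and 7.91% lower. High-fat-diet and control-diet mice did not overlap in 7 of the 10 genes, against 63.8% of all genes; 3 were higher and 4 lower, against 32.2% and 31.6% of all genes. A positive log2 fold change was found in 5 of the 10, against 50.4% of all genes. The median log2 fold change of the 10 genes, high-fat diet minus control diet, was 0.01, and that of all genes tested was 0.005. With all 4 libraries the shares and the median of the 10 genes were close to those of the whole table. Without control-diet mouse 2 the median of the 10 genes was -0.27, against 0.02 for all genes, and without high-fat-diet mouse 1 it was -0.13, against -0.01. When every gene with a count was tested, without the filter on low counts, Zfp36 (adjusted p = 0.0491) was called higher and Rc3h1 (adjusted p = 0.0445) lower by edgeR. That fit called 1552 genes of the whole table higher and 2231 lower, against 480 and 1457 in the fit with the filter. Without control-diet mouse 1, edgeR called Zfp36 (adjusted p = 0.0246) and Btg2 (0.0244) higher and Rc3h1 (0.0276) lower, beside 855 higher and 1681 lower genes of the whole table. Without any other single library, 0 of the 10 were called. Counts over the whole table also depended on single libraries: leaving out high-fat-diet mouse 1, edgeR called 71 genes higher and 300 lower, leaving out high-fat-diet mouse 2 it called 117 and 312, and leaving out control-diet mouse 2 it called 1934 and 2534.

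**Figure D1:**
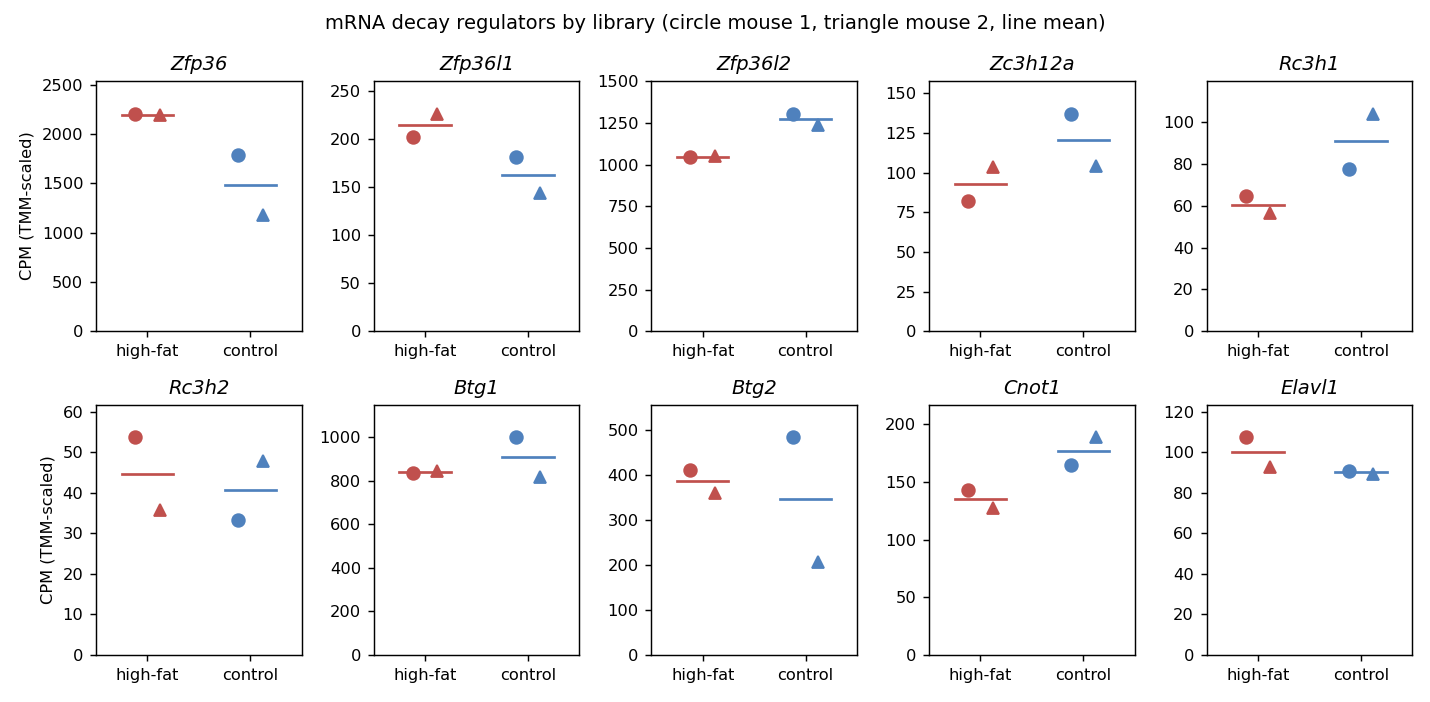
Level of each decay regulator in each library (CPM on a linear axis from 0; circles are mouse 1, triangles mouse 2, lines the mean of 2 mice; high-fat diet left, control diet right). Zfp36 sits at 2207 and 2189.9 CPM in high-fat-diet mice, above both control-diet mice, and Btg2 of control-diet mouse 2 (207 CPM) stands below the other libraries.

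Values of the TTP family genes differed between the diets in both directions, none past the test. Zfp36 encodes TTP, the founding member, whose protein also acts on its own transcript. Zfp36 (chromosome 7, 28376784 to 28380253, minus strand) had 2207 and 2189.9 CPM in high-fat-diet mice, against 1783 and 1180 CPM in control-diet mice. Both high-fat-diet mice lay above both control-diet mice, and the 2 control-diet mice lay far apart: Zfp36 averaged 2199 ± 12.2 CPM in high-fat-diet mice and 1482 ± 427 CPM in control-diet mice (SD, n = 2 each). The log2 fold change was 0.57 (SE 0.23, 95% interval 0.01 to 1.13), with an edgeR adjusted p of 0.154. It ran from 0.30 without control-diet mouse 2 to 0.90 without control-diet mouse 1.

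Zfp36l1 encodes a relative that also binds AU-rich elements and is known for its part in lymphocyte development. Zfp36l1 (chromosome 12, 80107754 to 80113013) had 203 and 227 CPM in high-fat-diet mice, against 181 and 145 CPM in control-diet mice. The diets did not overlap, and the gap between the nearest mice was small. Its log2 fold change was 0.40 (SE 0.17, 95% interval -0.02 to 0.82), with an edgeR adjusted p of 0.176, and was 0.24 without control-diet mouse 2. The lincRNA gene Gm26669 lies on the opposite strand of Zfp36l1 and held 53 and 73 counts in high-fat-diet mice, against 26 and 34 in control-diet mice, at most 0.839% of the counts of Zfp36l1.

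Zfp36l2, the other relative, is likewise known for work in lymphocytes and blood progenitors. Zfp36l2 (chromosome 17, 84183931 to 84187947) had 1044 and 1051 CPM in high-fat-diet mice, against 1306 and 1237 CPM in control-diet mice. The diets did not overlap, and here the high-fat-diet mice were the lower ones. For Zfp36l2 the log2 fold change was -0.28 (SE 0.15, 95% interval -0.65 to 0.09), with an edgeR adjusted p of 0.264.

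Set on one scale, Zfp36 held a larger share of the family's RNA in both high-fat-diet mice than in either control-diet mouse. Levels of different genes were compared in TPM, counts divided by the length of all annotated exons of the gene and scaled to the same sum in every library. On this scale Zfp36 had 1493 and 1431 TPM in high-fat-diet mice, against 1132 and 811 TPM in control-diet mice. Zfp36l2 had 694 and 675 TPM in high-fat-diet mice, against 815 and 835 TPM in control-diet mice. In control-diet mouse 2 Zfp36l2 thus stood slightly above Zfp36, while in the other libraries Zfp36 was the higher gene. That order in control-diet mouse 2 depended on the length used. With the longest transcript (2790 bases for Zfp36, 3530 for Zfp36l2), Zfp36 was the higher gene there too. Zfp36 made up 63.6 and 62.8% of the RNA of the family in high-fat-diet mice, against 54.4 and 46.0% in control-diet mice, a difference of 13.0 percentage points. Zfp36l2 made up 29.6 and 29.6% in high-fat-diet mice, against 39.2 and 47.4% in control-diet mice, and Zfp36l1 6.78 and 7.55% in high-fat-diet mice, against 6.42 and 6.55% in control-diet mice. For each of the 3 shares the exact two-sided permutation test over libraries gave p = 0.333, which is the smallest p that this test allows with 2 against 2 libraries. The difference of the Zfp36 share ran from 8.81 percentage points without control-diet mouse 2 to 17.2 without control-diet mouse 1, and that of the Zfp36l1 share, 0.682 percentage points in all, from 0.297 without high-fat-diet mouse 2 to 1.07 without high-fat-diet mouse 1.

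**Figure D2:**
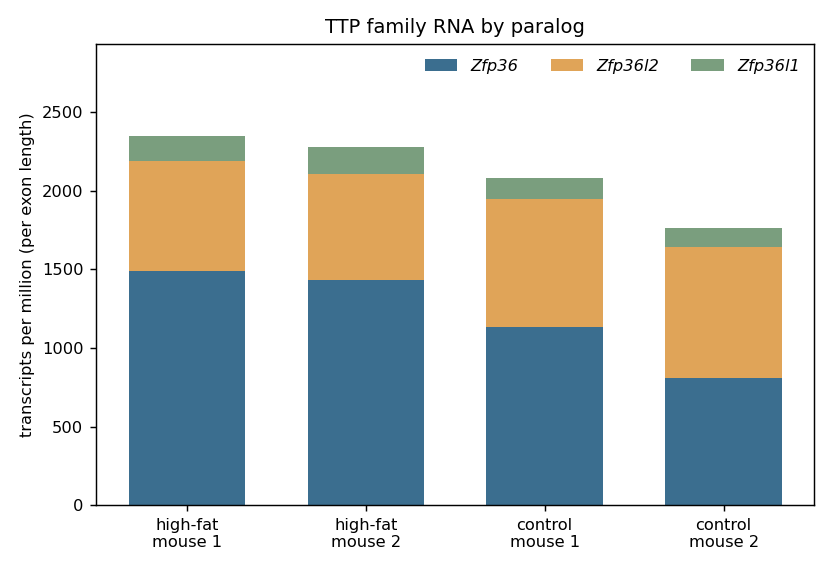
TTP family RNA in each library (TPM by exon length, stacked by paralog; high-fat-diet mice left, control-diet mice right). The Zfp36 segment is the tallest in both high-fat-diet mice (1493 and 1431) and in control-diet mouse 1 (1132), and about level with that of Zfp36l2 in control-diet mouse 2 (811 and 835).

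The Regnase-1 gene Zc3h12a ranked 1689 among the 18422 genes tested by mean TPM, and the Roquin genes Rc3h1 and Rc3h2 ranked 6796 and 10803. Zc3h12a encodes Regnase-1, which cleaves transcripts such as that of interleukin 6. Zc3h12a (chromosome 4, 125118423 to 125127840) had 82.3 and 103.7 CPM in high-fat-diet mice, against 137 and 104.0 CPM in control-diet mice. High-fat-diet mouse 2 and control-diet mouse 2 were almost level, and control-diet mouse 1 was the highest. Its log2 fold change was -0.37 (SE 0.20, 95% interval -0.86 to 0.11), with an edgeR adjusted p of 0.25. It was -0.20 leaving out high-fat-diet mouse 1, -0.16 leaving out control-diet mouse 1 and -0.56 leaving out control-diet mouse 2.

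Rc3h1 encodes Roquin-1, whose mutation in sanroque mice causes a lupus-like disease. It had the largest difference of the 10 genes on the lower side. Rc3h1 (chromosome 1, 160906418 to 160974978) had 64.7 and 56.3 CPM in high-fat-diet mice, against 77.7 and 104.0 CPM in control-diet mice. The diets did not overlap, with control-diet mouse 2 standing highest: Rc3h1 averaged 60.5 ± 5.91 CPM in high-fat-diet mice and 90.8 ± 18.6 CPM in control-diet mice (SD, n = 2 each). The log2 fold change was -0.59 (SE 0.19, 95% interval -1.04 to -0.13), with an edgeR adjusted p of 0.095. Without control-diet mouse 2 it was -0.36. Rc3h2 encodes Roquin-2, which shares many functions with Roquin-1. Rc3h2 (chromosome 2, 37370069 to 37422903) had 53.6 and 35.6 CPM in high-fat-diet mice, against 33.3 and 47.9 CPM in control-diet mice. The diets overlapped fully, and mice of 1 diet differed more than the diets did (log2 fold change 0.14, SE 0.26, 95% interval -0.50 to 0.77, edgeR adjusted p = 0.755).

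The BTG adaptors overlapped between the diets. Btg1, an antiproliferative gene often transcribed in resting leukocytes, had 837 and 845 CPM in high-fat-diet mice, against 1001 and 816 CPM in control-diet mice. Both high-fat-diet mice fell between the control-diet mice (log2 fold change -0.11, SE 0.17, 95% interval -0.53 to 0.31, edgeR adjusted p = 0.694). Btg1 lies on chromosome 10 from 96617006 to 96622809. Btg2, a target of p53 that is also induced early after stimulation, had 412 and 360 CPM in high-fat-diet mice, against 484 and 207 CPM in control-diet mice. Here too both high-fat-diet mice lay between the control-diet mice, which were further apart than in any of the other 9 genes on the log2 scale. The log2 fold change of Btg2 (chromosome 1, 134075170 to 134079120) was 0.16 (SE 0.38, 95% interval -0.75 to 1.07), with an edgeR adjusted p of 0.80. It was 0.90 without control-diet mouse 1 and -0.33 without control-diet mouse 2, so its direction rested on which control-diet mouse was kept.

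Cnot1 encodes the scaffold that the other CCR4-NOT subunits and the TTP and Roquin proteins dock on. Cnot1 (chromosome 8, 95719451 to 95807464) had 143 and 127 CPM in high-fat-diet mice, against 164 and 189 CPM in control-diet mice. The diets did not overlap (log2 fold change -0.39, SE 0.16, 95% interval -0.76 to -0.01, edgeR adjusted p = 0.155). The count is uncertain, because the processed pseudogene Gm6158 shares 903 bases with Cnot1 at 99.8% identity. Gm6158 held 1367 and 1261 counts in high-fat-diet mice, against 1338 and 1433 in control-diet mice, up to 25.9% of the Cnot1 count. With these counts added to Cnot1, an alternative chosen after seeing the data, the log2 fold change was -0.35 (edgeR adjusted p = 0.176).

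Elavl1, the stabilising counterpart of the TTP family, varied least between control-diet mice. Elavl1 (chromosome 8, 4285382 to 4325413) had 107 and 92.7 CPM in high-fat-diet mice, against 90.8 and 89.4 CPM in control-diet mice. The high-fat-diet mice lay just above the control-diet mice (log2 fold change 0.15, SE 0.15, 95% interval -0.21 to 0.51, edgeR adjusted p = 0.521). Leaving out high-fat-diet mouse 1 the log2 fold change was 0.059, and leaving out high-fat-diet mouse 2 it was 0.27. Within a library, the log2 ratio of Zfp36 to Elavl1 in TPM was 5.94 and 6.14 in high-fat-diet mice, against 5.87 and 5.30 in control-diet mice. The diets did not overlap, and the difference of 0.45 had an exact two-sided permutation p of 0.333, again the smallest this test allows. That difference was 0.17 without control-diet mouse 2 and 0.74 without control-diet mouse 1. Ccl25 overlaps 204 exon bases of Elavl1 on the opposite strand and held 142 and 146 counts in high-fat-diet mice, against 118 and 195 in control-diet mice, where Elavl1 itself held 2947 to 4018 counts per library.

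**Figure D3:**
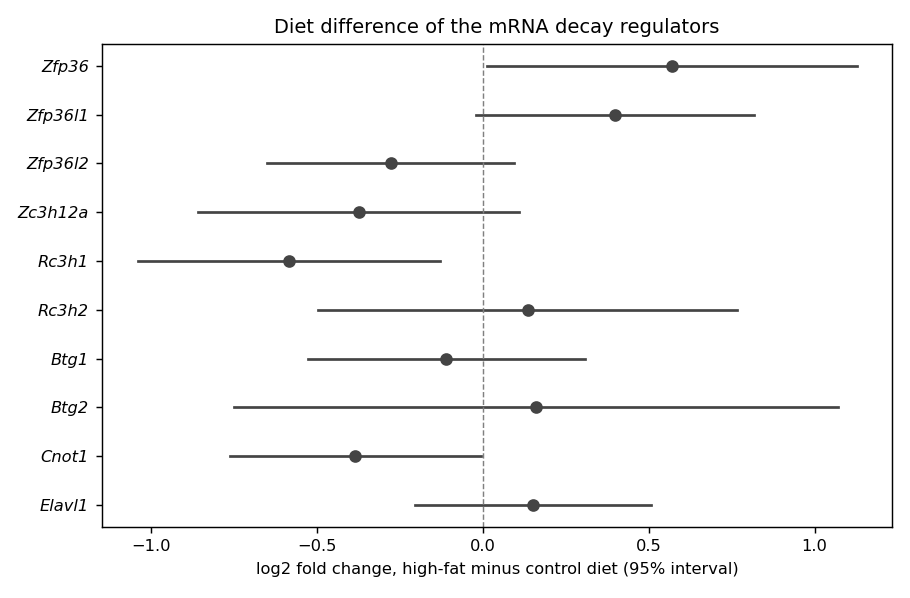
Log2 fold change of each decay regulator, high-fat diet minus control diet, with its 95% interval from edgeR, not adjusted for the number of genes. Most intervals span 0, those of Zfp36 (from 0.01), Cnot1 (to -0.01) and Rc3h1 (to -0.13) lie just off it, and that of Btg2 is the widest.

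In level per exon length (TPM) the 10 genes spanned a wide range. Zfp36 ranked 109 and Zfp36l2 ranked 177 among the 18422 genes tested, by their mean over the 4 libraries, and the 2 overlapped in control-diet mice and not in high-fat-diet mice. Btg1 had 372 and 363 TPM in high-fat-diet mice, against 418 and 369 TPM in control-diet mice, and Btg2 had 353 and 298 TPM in high-fat-diet mice, against 388 and 180 TPM in control-diet mice. Btg1 and Btg2 likewise overlapped in control-diet mice and not in high-fat-diet mice. Zfp36l1 followed with 159 and 172 TPM in high-fat-diet mice, against 134 and 115 TPM in control-diet mice, and then Zc3h12a with 67.0 and 81.6 TPM in high-fat-diet mice, against 105 and 86.0 TPM in control-diet mice. Elavl1, with 24.3 and 20.3 TPM in high-fat-diet mice, against 19.3 and 20.6 TPM in control-diet mice, lay next to Cnot1, with 19.6 and 16.8 TPM in high-fat-diet mice, against 21.1 and 26.2 TPM in control-diet mice. Elavl1 was the higher of these 2 genes in both high-fat-diet mice and Cnot1 in both control-diet mice, and over the 4 libraries their values overlapped. The Roquin genes came last, Rc3h1 overlapping Cnot1 in control-diet mice and not in high-fat-diet mice. Rc3h1 had 13.4 and 11.3 TPM in high-fat-diet mice, against 15.1 and 21.9 TPM in control-diet mice, and Rc3h2 had 6.42 and 4.12 TPM in high-fat-diet mice, against 3.74 and 5.82 TPM in control-diet mice. With the longest transcript as the length, Elavl1 and Cnot1 changed places and the other 8 genes held their rank. Zfp36 then lay above Zfp36l2 in each library, so the overlaps given here hold for the exon length only.

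Of the wider decay machinery, the adaptors Tob1 and Tob2 fell in high-fat-diet mice. They belong to the same family as Btg1 and Btg2 and, like them, bring CCR4-NOT deadenylases to transcripts. Tob1 had 18.1 and 17.4 CPM in high-fat-diet mice, against 103 and 85.5 CPM in control-diet mice, and was 5.33-fold lower (log2 fold change -2.41, SE 0.16, edgeR adjusted p = 0.00509). Tob2 had 118 and 126 CPM in high-fat-diet mice, against 438 and 443 CPM in control-diet mice, and was 3.61-fold lower (log2 fold change -1.85, SE 0.15, edgeR adjusted p = 0.00634). In both genes the mice of a diet lay close together and the diets lay far apart. Both calls held without any 1 of the 4 libraries, with adjusted p of at most 0.00991 for Tob1 and 0.0183 for Tob2. Whether Tob1 and Tob2 changed more than Btg1 and Btg2 was not tested as a difference. Of the other 4 members of that list (Btg3, Pan2, Pan3 and Parn) none was called, and Pan3, the subunit that guides the PAN2 deadenylase, had 95.7 and 91.2 CPM in high-fat-diet mice, against 116 and 119.9 CPM in control-diet mice (edgeR adjusted p = 0.157).

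Over all 7 lists of the decay machinery and its kinases, 63 of 64 genes were tested, and edgeR called 3 higher and 4 lower (11.1%), against 10.5% of all genes. The median log2 fold change of the 63 genes was 0.09. Without either of the high-fat-diet mice 0 were called higher and 2 lower, and without control-diet mouse 2 the calls were 5 higher and 6 lower. Of 10 further CCR4-NOT subunits edgeR called 0, with 0 at an unadjusted p below 0.05, and DESeq2 called 0. The smallest p among them were those of the deadenylase Cnot7, with 49.4 and 36.6 CPM in high-fat-diet mice, against 28.2 and 34.1 CPM in control-diet mice, and of Cnot9, a subunit that TTP and Roquin contact, with 84.4 and 82.1 CPM in high-fat-diet mice, against 66.2 and 68.3 CPM in control-diet mice (edgeR adjusted p = 0.169 and 0.176). The 15 genes of decapping and 5' to 3' decay had a median of 0.09, and the 5 Regnase relatives and partners had a median of -0.25. In each of these lists edgeR called 0, with 0 at an unadjusted p below 0.05, and DESeq2 called 0. Among the Regnase partners, the helicase Upf1 had 162 and 161 CPM in high-fat-diet mice, against 204 and 195 CPM in control-diet mice (edgeR adjusted p = 0.189). The diets did not overlap in Upf1. N4bp1, a relative of Regnase-1, had 204 and 161 CPM in high-fat-diet mice, against 298 and 185 CPM in control-diet mice, and overlapped (edgeR adjusted p = 0.325). Of 14 exosome genes tested, 11 had a positive log2 fold change, and the list median was 0.21. Without overlap between the diets 8 were higher and 2 lower, against 32.2% and 31.6% of all genes. The core subunit Exosc8 alone was called, with 45.7 and 41.6 CPM in high-fat-diet mice, against 28.6 and 28.8 CPM in control-diet mice (log2 fold change 0.60, SE 0.14, edgeR adjusted p = 0.0467).

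Of 7 other binders of AU-rich and GU-rich elements 2 were called higher, against 2.61% of all genes, and 5 had a positive log2 fold change. Tia1, which silences translation of bound transcripts and assembles stress granules, had 32.2 and 25.6 CPM in high-fat-diet mice, against 14.3 and 16.0 CPM in control-diet mice (log2 fold change 0.93, SE 0.18, edgeR adjusted p = 0.0334). Hnrnpd, which encodes AUF1, had 186 and 157 CPM in high-fat-diet mice, against 99.9 and 113 CPM in control-diet mice (log2 fold change 0.69, SE 0.16, edgeR adjusted p = 0.0476). In both genes both high-fat-diet mice lay above both control-diet mice. Leaving out high-fat-diet mouse 1 (adjusted p of 0.212 to 0.282) or high-fat-diet mouse 2 (0.0696 to 0.155) ended the calls of Exosc8, Tia1 and Hnrnpd, and those of Exosc8 (0.0621) and Hnrnpd (0.0747) also ended without control-diet mouse 1. The edgeR call of Hnrnpd ended under RLE size factors (adjusted p = 0.0504), and at a minimum count of 50 those of Hnrnpd (0.0624) and Exosc8 (0.0596) did.

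Among the p38 and MK2 kinases that hold TTP inactive, 2 of 6 were called lower, against 7.91% of all genes. Mapkapk3, which encodes the MK2 relative MK3, had 138 and 157 CPM in high-fat-diet mice, against 307 and 262 CPM in control-diet mice (log2 fold change -0.95, SE 0.16, edgeR adjusted p = 0.0267). Map2k3, an activator of p38, had 68.7 and 79.5 CPM in high-fat-diet mice, against 147 and 113 CPM in control-diet mice (log2 fold change -0.81, SE 0.18, edgeR adjusted p = 0.0435). Neither pair of mice overlapped the other diet. Mapkapk2, MK2 itself, had 336 and 339 CPM in high-fat-diet mice, against 535 and 429 CPM in control-diet mice (edgeR adjusted p = 0.104), and Mapk14, which encodes p38 alpha, had 168 and 159.9 CPM in high-fat-diet mice, against 207 and 217 CPM in control-diet mice (adjusted p = 0.136). The remaining 2 kinases of the list, both of low level, lay in the other direction. Mapk11, which encodes p38 beta, had 8.84 and 8.37 CPM in high-fat-diet mice, against 6.57 and 4.33 CPM in control-diet mice (edgeR adjusted p = 0.153). Map2k6, another activator of p38, had 5.53 and 4.53 CPM in high-fat-diet mice, against 2.56 and 3.84 CPM in control-diet mice (edgeR adjusted p = 0.192). Neither passed the test. Leaving out high-fat-diet mouse 1 (0.166 and 0.245) or high-fat-diet mouse 2 (0.0906 and 0.128) ended the calls of Mapkapk3 and Map2k3, and that of Map2k3 ended without control-diet mouse 1 (0.0633). These are transcript levels, and the phosphorylation that sets the activity of TTP was not measured.

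Known targets of the decay regulators were called in both directions. Of 26 targets tested, edgeR called 4 lower and 1 higher, 19.2% against 10.5% of all genes. A positive log2 fold change was found in 9 of the 26, and their median was -0.49. DESeq2 tested all 27 targets and called 9 lower and 2 higher. It also called more of the whole table, 1874 genes lower and 1080 higher, against 1457 and 480 by edgeR. Rel, which encodes the NF-kB subunit c-Rel and is cut by Regnase-1, had 75.4 and 61.6 CPM in high-fat-diet mice, against 231 and 204 CPM in control-diet mice (log2 fold change -1.67, SE 0.17, edgeR adjusted p = 0.00943). The diets were far apart, and the call held without any 1 library (adjusted p at most 0.0317). Ier3, an early-response gene whose transcript TTP removes, had 125 and 192 CPM in high-fat-diet mice, against 556 and 388 CPM in control-diet mice (log2 fold change -1.57, SE 0.27, edgeR adjusted p = 0.0276). Its call ended without high-fat-diet mouse 1 (0.0897).

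Cxcl1, a neutrophil chemoattractant whose transcript carries AU-rich elements, was the target called higher. It had 18.1 and 18.7 CPM in high-fat-diet mice, against 10.97 and 10.1 CPM in control-diet mice (edgeR adjusted p = 0.039). Leaving out high-fat-diet mouse 1 (0.217) or high-fat-diet mouse 2 (0.191) ended its call. The other 2 called lower had few reads. Csf3, which encodes the granulocyte growth factor G-CSF, had 3 counts in all in high-fat-diet mice, against 52 in control-diet mice, a ratio of 0.053 (exact 95% interval 0.0106 to 0.164, counting error only, edgeR adjusted p = 0.0403). Il23a, a subunit of interleukin 23, had 6 counts in all in high-fat-diet mice, against 94 in control-diet mice, a ratio of 0.0586 (exact 95% interval 0.021 to 0.132, counting error only, edgeR adjusted p = 0.0158). Leaving out high-fat-diet mouse 1 (0.0743 and 0.0798) or high-fat-diet mouse 2 (0.161 and 0.0535) ended the calls of Csf3 and Il23a. High-fat-diet mouse 2 held 0 counts of Csf3 and high-fat-diet mouse 1 held 3. Tnf, shown above for its site, had 101 and 94.4 CPM in high-fat-diet mice, against 137 and 141 CPM in control-diet mice (edgeR adjusted p = 0.0665). Without control-diet mouse 2, edgeR called 10 of the targets lower and 3 higher, and without high-fat-diet mouse 1 it called 1 lower and 0 higher; the counts over the whole table in these fits, given above, moved in the same direction.

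**Figure D4:**
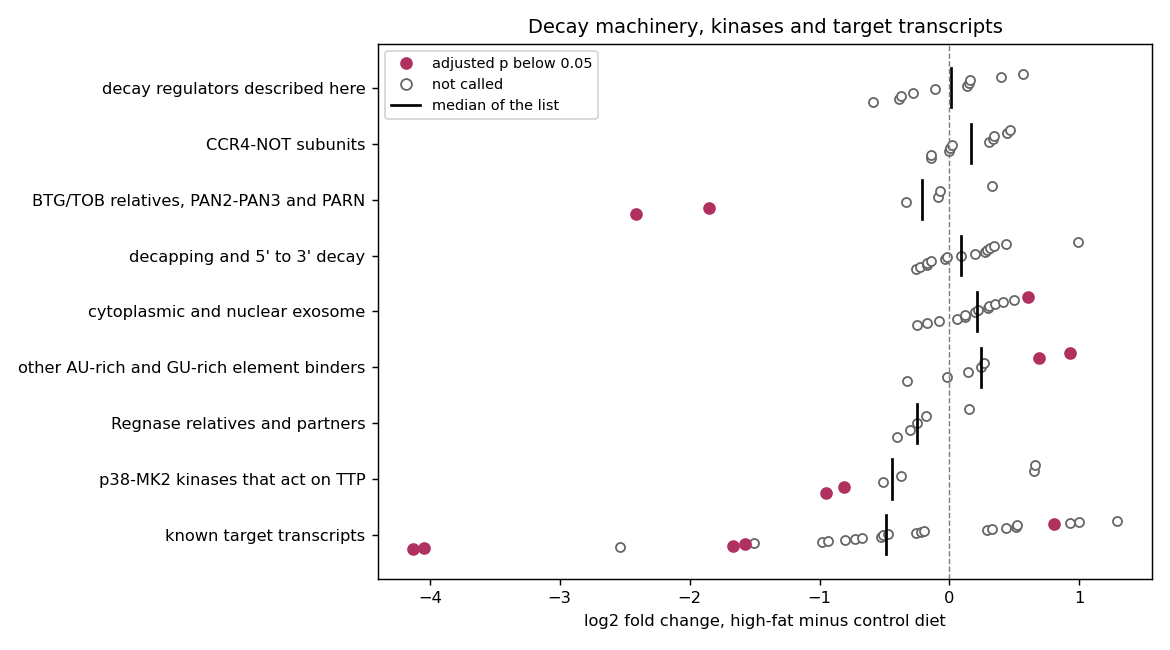
Log2 fold change, high-fat diet minus control diet, of each tested gene of the 10 decay regulators, of 7 lists of decay machinery and kinases, and of known target transcripts. Filled points have an edgeR adjusted p below 0.05 and black lines are list medians; Tob1 (-2.41) and Tob2 (-1.85) stand apart from the rest of the decay machinery.

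The 13528 tested genes with an annotated 3' UTR, 73.4% of the 18422 tested, were also grouped by the number of TTP nonamers in it, as a description with no test. Of the 12457 genes with no nonamer, 3.14% were called higher and 7.68% lower, with a median log2 fold change of 0.02. Of 837 genes with 1 nonamer, 4.78% were higher and 7.29% lower, with a median of 0.04. Of 151 genes with 2 nonamers, 3.31% were higher and 7.95% lower, with a median of 0.06. Of 83 genes with at least 3 nonamers, 4.82% were higher and 7.23% lower, with a median of 0.09. Genes with more nonamers also had longer 3' UTRs, at a median of 2929 bases in the last group against 1054 bases in the first. Levels differed too, with medians of 4.435, 4.696, 4.631 and 5.088 log2 CPM from the first group to the last. Of 27 known targets, 11 held a nonamer. Among the called targets Rel and Il23a held 1, Cxcl1 held 2, and Ier3 and Csf3 held 0. The inner part of the nonamer, TATTTAT, matched 2 times in Rel, 5 in Il23a, 6 in Cxcl1, 4 in Ier3 and 2 in Csf3.
Rel: cctcccagactTTATTTATTttttttagct
Cxcl1: tatttatgtatTTATTTATTccacaaagtg
Il23a: atagatgatggTTATTTATTctatttataa
These 3 sites are given in the same format as above. Rel (chr11:23737834-23737863, minus strand) is a target that fell far, and Cxcl1 (chr5:90892614-90892643, plus strand) is the one called higher. Il23a (chr10:128296184-128296213, minus strand) is one of few counts that was called lower.

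**Figure D5:**
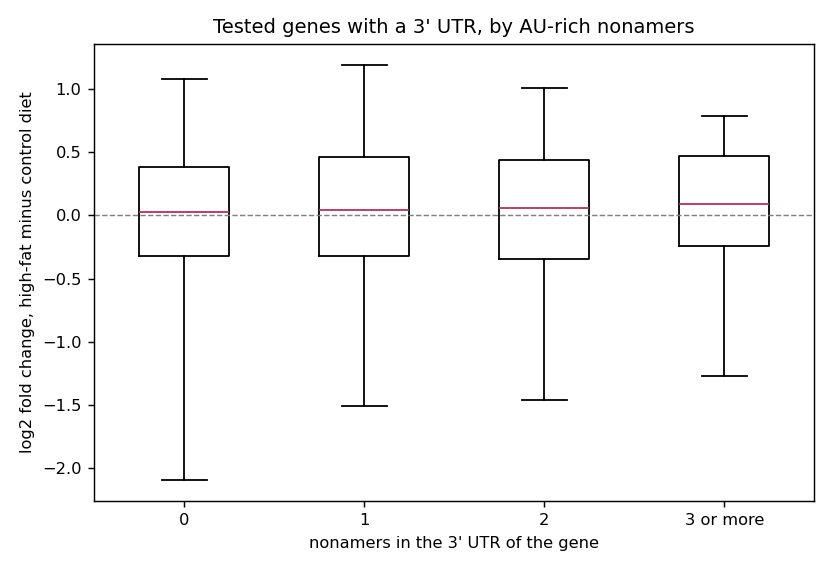
Log2 fold change of the 13528 tested genes with an annotated 3' UTR, high-fat diet minus control diet, grouped by the number of TTATTTATT nonamers in the 3' UTR. Boxes are quartiles with the median line and whiskers run from the 5th to the 95th percentile; medians lie between 0.02 and 0.09.

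Zfp36 and Btg2 belong to the genes transcribed within minutes of a stimulus, tissue dissociation included, so a list of 14 immediate early and handling genes is given beside them. Of these, edgeR called 2 lower on the high-fat diet and 0 higher, against 7.91% and 2.61% of all genes. DESeq2 called 4 lower and 1 higher, beside 1874 lower and 1080 higher genes of the whole table. The median log2 fold change by edgeR was -0.55. Nr4a1, an orphan nuclear receptor, had 273 and 258 CPM in high-fat-diet mice, against 1363 and 613 CPM in control-diet mice (edgeR adjusted p = 0.0335). Ier5, another early-response gene, had 396 and 409 CPM in high-fat-diet mice, against 736 and 626 CPM in control-diet mice (edgeR adjusted p = 0.040). In both genes the high-fat-diet mice were the lower ones. Without high-fat-diet mouse 1 (0.235 and 0.247) or high-fat-diet mouse 2 (0.192 and 0.183) the calls of Nr4a1 and Ier5 ended. That of Ier5 also ended without control-diet mouse 1 (0.0533), and that of Nr4a1 when every gene with a count was tested (0.0744). Without control-diet mouse 1 the log2 fold change of Nr4a1 was -1.20, against -1.90 with all libraries. Fos, a subunit of AP-1, had 2822 and 2724 CPM in high-fat-diet mice, against 2053 and 1663 CPM in control-diet mice (edgeR adjusted p = 0.0901, DESeq2 0.0276), and was the one gene of the 14 with a positive difference. Of the 14 genes 9 were higher in control-diet mouse 1 than in control-diet mouse 2, as Zfp36 and Btg2 were, and 5 were lower there (Klf6, Hspa1a, Hspa1b, Dnajb1 and Hsp90aa1). The part of cell handling in the values of Zfp36 and Btg2 was not tested.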

How the data were processed

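The authors deposited raw counts, 1 whole number for each gene in each library. The submitters' processing notes name cutadapt 1.15, FastQC 0.11.5, BWA 0.7.12, DESeq2 1.24.0 and the builds GRCm38 and mm10. No source used here gives the counting program, its strand setting or how it handled reads with several matches, so reads of overlapping genes on opposite strands may not be separated. Symbols matched 53274 of 53379 identifiers. Positions, lengths and 3' UTRs came from GENCODE M21 on GRCm38.

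The fit used edgeR 4.0.16 (R 4.3.3): filterByExpr (minimum count 10, minimum total 15) left 18422 genes, libraries were scaled by TMM, and diet was the only term of the quasi-likelihood test (high-fat minus control), adjusted by the Benjamini-Hochberg method; genes are called at an adjusted p below 0.05. The standard error is the size of the log2 fold change divided by the square root of F. Alternatives were DESeq2 1.42.0, other scalings and filters, a replicate block and each library left out; a fit with 1 library in a diet takes its spread from the other diet. Copies were searched with blastn at 95% identity over 300 bases.

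The 10 genes and all lists were chosen with earlier results of these data known. Named were the 10 genes and the sort markers. Of lists other than cell type markers, up to 4 genes of smallest p and the called genes were named. Of the called cell type markers only S100a8, S100a9 and Ly6g were named. Tnf, Mapk11, Map2k6, Csf3r, Mmp9, Cdh1, Cd79b and the handling genes set between control-diet mice were chosen after values were seen. The nonamer and copy searches were also chosen after values were seen. Labels name separate mice but no shared cage, litter or day.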

Additional observations from a re-analysis of the deposited data

How the results depend on the processing

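The counts of called decay regulators, 0 higher and 0 lower, were 1 and 1 with every gene with a count tested, and 0 to 2 and 0 to 1 when single libraries were left out. Their median log2 fold change ran from -0.2665 to 0.08796 in those fits without 1 library. The fits counted next include those with pseudogene counts, which touched few of the genes, and those chosen after seeing the data. Of 130 fits of single decay regulators, 120 kept direction and stayed uncalled, 6 gained a call and 4 turned direction. Those turned were of Rc3h2 (-0.17 to 0.42 over fits without 1 library), Btg1 (-0.25 to 0.048) and Btg2 (-0.33 to 0.90). The cause was not tested. For the decay machinery the calls (3 higher, 4 lower) were 1 higher at a minimum count of 50 and 1 higher with the mouse number as a replicate block, and 0 to 5 higher and 2 to 6 lower without single libraries. For known targets (1 higher, 4 lower) they were 2 and 9 by DESeq2, 2 higher with every gene with a count, 2 lower at a minimum count of 50, which drops genes of few counts, 0 higher with the block, and 0 to 3 and 1 to 10 without single libraries. For immediate early genes (0 higher, 2 lower) they were 1 and 4 by DESeq2, 1 higher with every gene with a count, 1 lower with the block, and 0 to 1 and 0 to 6 without single libraries. For cell type markers (5 higher, 12 lower) they were 8 and 7 with every gene with a count, and 4 to 8 and 4 to 21 without single libraries.

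Over all genes (480 higher, 1457 lower), DESeq2 called 1080 and 1874, testing every gene with a count 1552 and 2231, and a minimum count of 50 called 262 and 891; leaving out single libraries gave 71 to 1934 higher and 300 to 2534 lower. Same-numbered mice deviated with a correlation of -0.19. This correlation over genes rests on 2 mice a diet and cannot decide whether the numbers pair them. With the mouse number as the block, no call of a decay regulator changed, and 567 genes were called higher and 1481 lower. The block ended the edgeR calls of Exosc8 (adjusted p = 0.0916), Hnrnpd (0.0678), Cxcl1 (0.0637) and Ier5 (0.0552). With crossed numbers as the block, chosen after seeing the data, there were 909 higher and 1546 lower genes, 1 lower decay regulator, 2 higher targets and 8 higher markers. Adding counts of the pseudogene Zfp36l1-ps left the log2 fold change of Zfp36l1 at 0.40. With 2 mice a diet, differences the size of those of most decay regulators were within the error of the test. The p-values of edgeR set a difference against a spread that is estimated from these mice and moderated over all genes.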
